A study of Drosophila melanogaster with 39 samples.

Results

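Ribosome biogenesis genes and the transcription factor gene Myc were followed through 39 two-colour arrays of Drosophila melanogaster imaginal discs, the larval pouches that become adult legs and wings. The set holds 36 listed genes, and 34 of them had a probe, found through the CG number in the probe name, out of 11436 named genes on the arrays. These 34 genes had 41 probes in all, and where a gene had several, the one measured on most arrays was used. U3-55K and Rrp40 had no probe, and mbm had a value on 4 arrays, too few to be tested in any comparison. Myc had a value on 25 of the 39 arrays and Nopp140 on 18.

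Ribosomes are built in the nucleolus, where RNA polymerase I transcribes the ribosomal RNA, small nucleolar ribonucleoproteins (snoRNPs) modify it, and separate sets of processing factors, GTPases and helicases assemble the small and the large subunit. Myc is a transcription factor that promotes growth in flies, and genes for ribosome building are among its best known targets there. In imaginal discs growth and cell division go on until metamorphosis, and clones with less Myc are outcompeted by their neighbours.

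When the signalling protein Wingless (Wg) is expressed throughout a leg disc, some dorsal cells switch from a leg to a wing fate, which is called transdetermination (TD). The Wg stock carried y,w,hs-flp and vgBE-GAL4/UASGFP with an actin-promoter wg+ transgene freed by flip recombination. Its larvae had heat shocks at 60 and 72 h after egg laying and were dissected 3 days later, by when Wg is over-expressed in most disc cells per the labels and metamorphosis is delayed by a day. TD cells were cut out by the fluorescence of GFP driven by the boundary enhancer of vg, D(wg) are the other dorsal cells of the same first leg discs and V(wg) the ventral ones. For these 3 fractions the labels state pools of 4 to 8 discs. D(wt) and V(wt) are dorsal and ventral cells of OregonR wild-type first leg discs. Whole single discs of wild-type (OregonR, male, wandering late in the third instar) and Wg-expressing larvae, and 3/4 fragments of second leg discs kept in adult female abdomens for 3 to 5 days, were each set against a reference pooled from male and female leg discs of all 3 segments. Wing discs were set directly against leg discs of the same larva. The labels give no heat shock for wild-type samples, so that Wg, heat shock and stock cannot be told apart wherever Wg-expressing discs or their cells meet wild-type samples, fragments or the reference.

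The groups hold 4 arrays of wild-type first leg discs, 9 of wing against leg (3 for each leg segment), 6 of Wg-expressing first leg discs, 3 of TD against D(wg), 5 of TD against V(wg), 3 of D(wg) against V(wg), 2 of TD against D(wt), 3 of D(wt) against V(wt) and 4 of fragments. Every value is a log2 ratio, centred on the median of its array, and values above 0 stand for more transcript in the first-named sample. Since discs and dissected pieces are bulk samples, fewer cells of a type and less RNA per cell cannot be told apart. A gene was called when its p from limma's moderated test, adjusted over all probes of the comparison, was at most 0.05. The labels do not say for every array that discs or pools were separate, so p-values measure the spread between arrays, part of which may be technical. That spread was estimated for each probe over all 39 arrays together, and not from the arrays of a comparison alone. Arrays are not equally wide. The median absolute deviation over all probes ran from 0.15 on an array of D(wt) against V(wt) to 0.65 on one of fragments.

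The direction of the arrays of TD against D(wt) could not be settled. The wing marker vg separated wing from leg discs by 5.63 and TD from D(wg) cells by 3.76, which are the directions the labels give. On the 3 arrays of TD against D(wg) every control spot for GFP, which TD cells carry, was above 0, with medians of 4.10, 4.06 (1 spot) and 4.69. On the 2 arrays labelled TD against D(wt) 16 of 16 and 34 of 34 GFP spots were below 0 when turned as the labels say, with medians of -1.96 and -5.04. There vg read -1.73 and -1.77, and the fitted vg ratio was -1.40 (limma adjusted p 0.305). Over all probes the 2 arrays correlated with each other at 0.74 and with the 8 other TD arrays at -0.39 to 0.20, with 2 of the 16 pairs under -0.3. Values of this comparison are therefore given as labelled and again with the sign turned, and no value of another comparison changes with that sign.

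**Figure D1:**
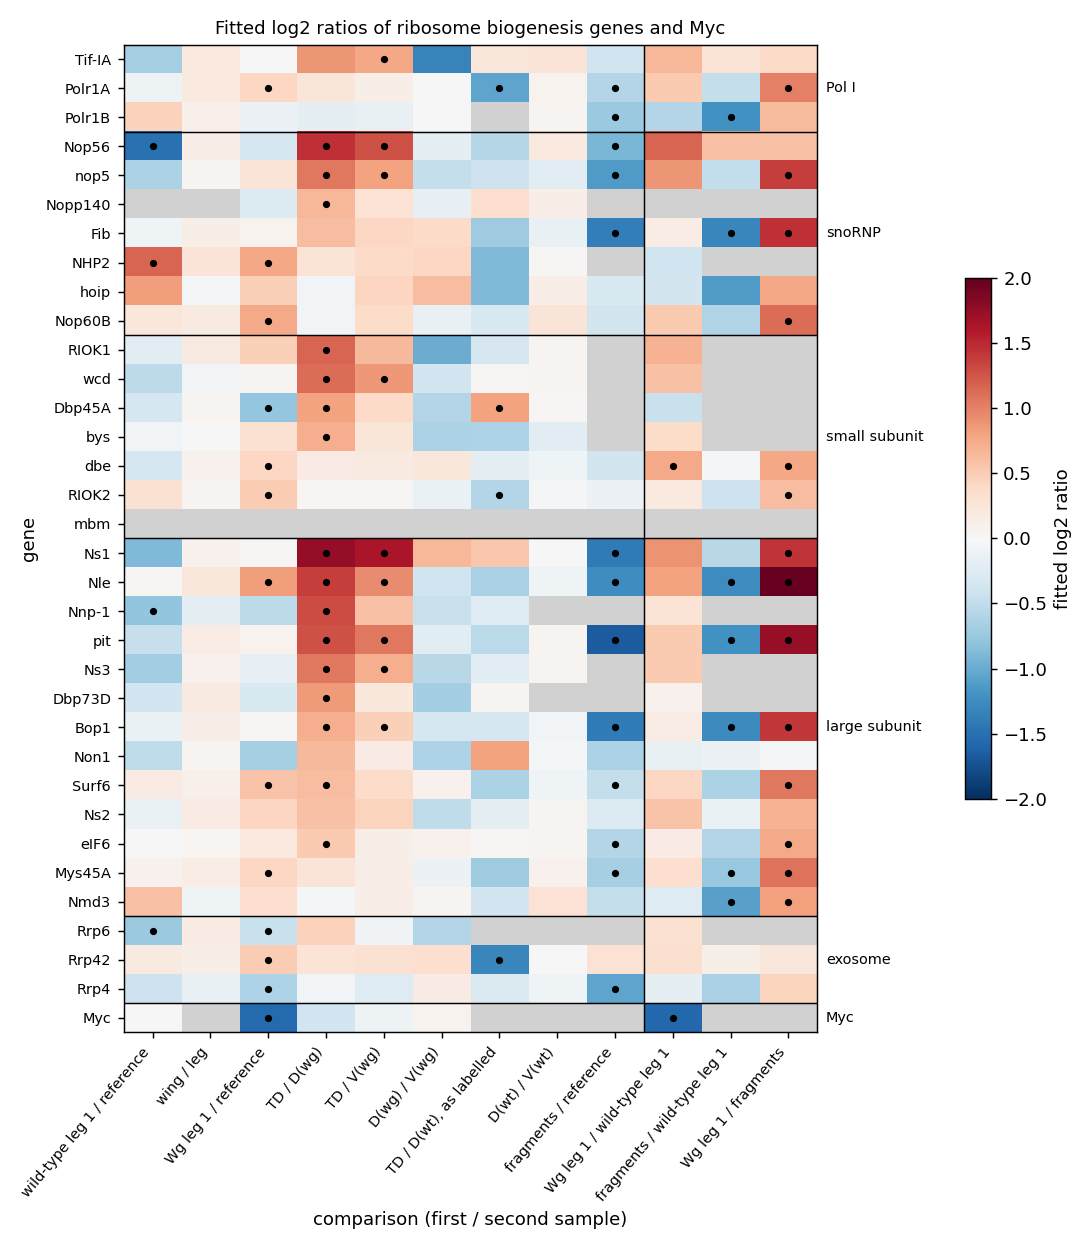
Fitted log2 ratios of the 34 genes (rows, grouped by role) in the 9 categories of arrays and, right of the line, in 3 comparisons through the shared reference. Red is higher and blue lower in the first-named sample, grey was not tested and a dot marks a call at an adjusted p of at most 0.05; the TD columns against D(wg) and V(wg) hold 16 and 9 dots, all red, and the fragment column holds 13, all blue. The column of TD against D(wt) is drawn as labelled, with its direction not settled.

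TD cells carried more transcript of 16 of the 33 genes tested than the dorsal cells beside them, and of no gene less. Over all genes 10.8 percent were called higher and 7.87 percent lower in this comparison (761 and 556 genes, or 597 and 716 with the values as deposited, where 15 of the set were higher). The median log2 ratio of the 33 genes was 0.62, against 0.046 over all genes tested. On 3 arrays, 20 of the 32 genes with a value on each were above 0 on all 3 and 0 below 0 on all 3, while 30.7 percent of all genes were above and 27.0 percent below 0 on all 3. The third array of TD against D(wg), the single one with the dyes the other way round, had the highest median of the set (0.86, against 0.51 and 0.56). Without it 2 of 32 genes tested were called, with 8.71 percent of all genes called either way, and the 2 were Ns1 and Nle. Without the second array 10 of 32 were called, with 5.52 percent of all genes.

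Among the large-subunit factors 9 of 13 were called. Ns1, nucleostemin, a nucleolar GTPase needed for large-subunit assembly, read 1.75, 1.46 and 1.91 on the 3 arrays of TD against D(wg). All 3 values lie far above 0, and the fitted difference was 1.76 (SE 0.41, 3.40-fold, limma adjusted p 0.00479). Nle, Notchless, a WD-repeat protein of late pre-60S maturation, read 1.06, 1.22 and 1.86, for a fitted 1.39 (SE 0.27, 2.61-fold, adjusted p 0.00173). Nnp-1, the homologue of yeast Rrp1, read 1.18, 0.75 and 1.98, for a fitted 1.31 (SE 0.27, adjusted p 0.00338). All of these values were again positive, the third array the highest. pit, pitchoune, a DEAD-box helicase, read 1.34, 0.88 and 1.63, for a fitted 1.28 (SE 0.28, 2.42-fold, adjusted p 0.00329). Ns3, a GTPase related to nucleostemin, read 0.74, 1.27 and 1.14, for a fitted 1.06 (SE 0.32, adjusted p 0.0224). The other large-subunit factors called were Dbp73D, Bop1, Surf6 and eIF6, with fitted values between 0.52 and 0.85, and those not called were Non1 (0.65), Ns2 (0.58), Mys45A (0.26) and Nmd3 (-0.04).

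Of the small-subunit factors 4 of 6 tested were called. RIOK1, a kinase of late pre-40S maturation, read 0.55, 1.08 and 1.68 (fitted 1.16, SE 0.39, limma adjusted p 0.0381). wcd, a protein of the U3 snoRNP known as Utp18 in yeast, read 0.95, 0.66 and 1.62 (fitted 1.11, SE 0.24, adjusted p 0.0036). Dbp45A and bys, the latter an export factor of the pre-40S particle, were called at 0.81 and 0.73. RIOK2, the other kinase of that step, read 0.32, -0.28 and 0.09 and straddled 0, with a fitted 0.04.

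Of the snoRNP genes 3 of 7 were called. The box C/D core proteins Nop56 and nop5 (Nop58 in yeast), which with fibrillarin methylate ribosomal RNA, were called. Nop56 read 1.12, 1.22 and 1.93, for a fitted 1.46 (SE 0.34, 2.75-fold, limma adjusted p 0.00476). nop5 read 0.69, 0.86 and 1.57, for a fitted 1.05 (SE 0.26, adjusted p 0.00592). Fib, fibrillarin itself, was positive on all 3 arrays at 0.18, 0.77 and 0.86 without passing (fitted 0.62). hoip, an RNA-binding protein of the same box C/D particles, read 0.46, -0.47 and -0.31, on both sides of 0 (fitted -0.05, limma adjusted p 0.933). The box H/ACA proteins, which make pseudouridine, gave no call: Nop60B, the enzyme, read 0.35, -0.39 and -0.16, and NHP2 0.73, 0.44 and -0.31. Nopp140, a chaperone of snoRNPs, was called at 0.67 on 2 arrays with values. Another of its probes, not tested, read -0.09 on the third array, where the probe kept read 0.57.

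RNA polymerase I and the exosome, the nuclease that trims ribosomal RNA precursors, gave no call among 3 genes each. The subunits Polr1A and Polr1B had fitted values of 0.24 and -0.19. Tif-IA, the initiation factor of this polymerase, has 3 probes. The probe kept read 0.76, 0.09 and 1.74 (fitted 0.88, limma adjusted p 0.0645), another was called at 1.07 (adjusted p 0.0439), and the third had the opposite sign at -0.61 (adjusted p 0.151). The exosome genes Rrp4, Rrp6 and Rrp42 lay between -0.05 and 0.46. Myc read -0.57, -0.56 and 0.09, with a fitted value of -0.38 (SE 0.26, adjusted p 0.319).

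Against the ventral cells 9 of 33 genes were higher in TD cells and 0 lower (6.97 percent of all genes were called higher and 6.96 percent lower). Since both comparisons use TD cells, their values stand side by side and their likeness is no further test. The median log2 ratio was 0.37, against -0.006 over all genes tested. Of the 27 genes with a value on all 5 arrays, 10 were above 0 on each and 0 below 0 on each, where all genes gave 10.8 and 11.2 percent. Without the first array, whose values spread most, 3 of the 33 genes were called (Ns1, Nop56 and pit), with 5.75 percent of all genes called. With the 5 arrays fitted alone and no dye term 0 of the 33 were, against 4.44 percent of all genes.

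Ns1 read 2.99, 2.52, 0.66, 1.08 and 0.74 on the 5 arrays (fitted 1.63, SE 0.32, 3.1-fold, limma adjusted p 0.000886). Nop56 read 2.59, 1.64, 0.96, 0.65 and 0.42 (fitted 1.28, SE 0.26, adjusted p 0.00146). pit read 1.74, 1.82, 0.58, 0.65 and 0.46 (fitted 1.05, SE 0.21, adjusted p 0.00123). The first 2 arrays are the high ones in each of these genes, and they are also the 2 arrays of the opposite dye orientation. On every array the values are above 0, and for these 3 genes the 2 orientations do not overlap. Nle (0.95), wcd (0.87), nop5 (0.80), Ns3 (0.73) and Bop1 (0.48), the last a scaffold of pre-60S maturation, were called with a positive value on all 5 arrays. Tif-IA was called at 0.77, and 1 of its arrays was negative (-0.22). Another of its probes was called at 0.92, and the third was fitted at 0.10 and not called (limma adjusted p 0.831).

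By role, 5 of 13 large-subunit, 1 of 6 small-subunit, 2 of 7 snoRNP, 1 of 3 polymerase I and 0 of 3 exosome genes were called against V(wg). Myc read -0.33, -0.18, 0.20 and 0.14 on the 4 arrays that measured it, 2 on either side of 0 (fitted -0.10, SE 0.23, limma adjusted p 0.825).

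**Figure D2:**
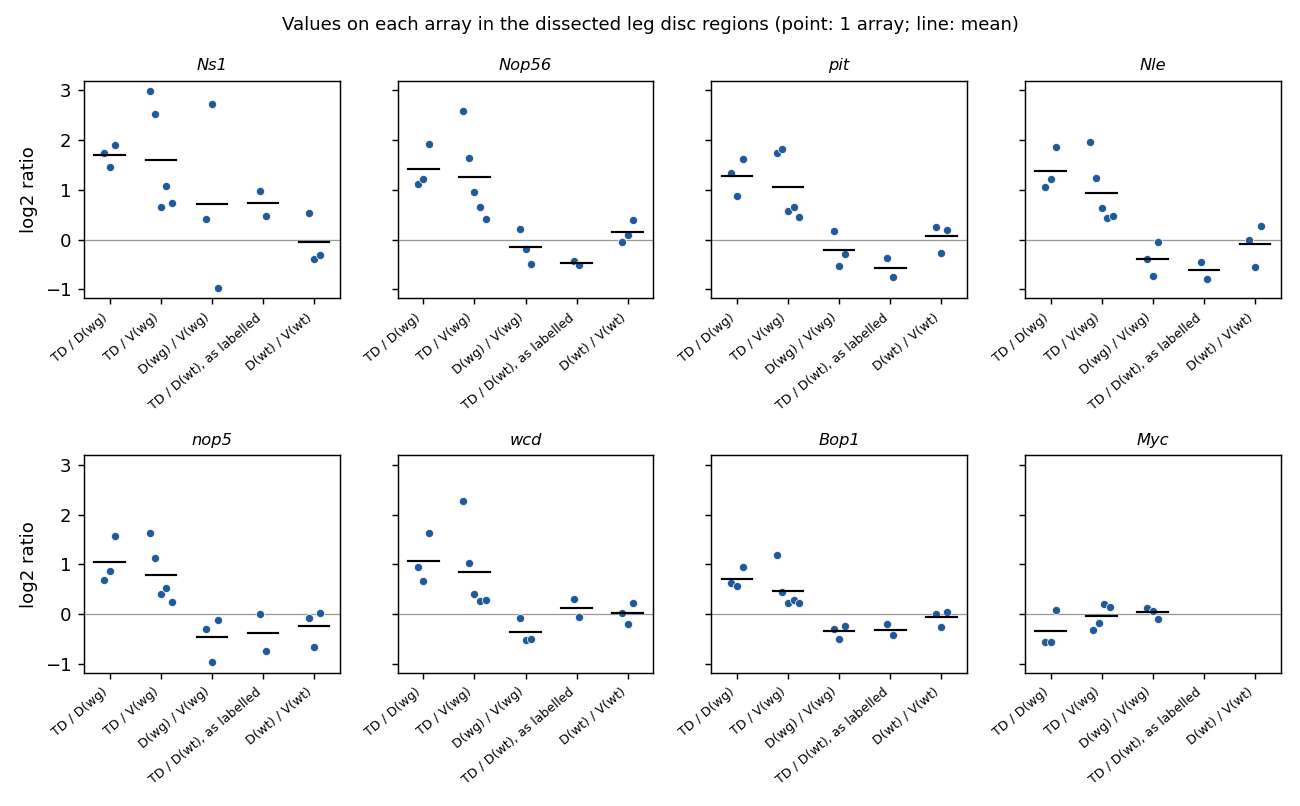
Log2 ratios (y axis) on each array for 7 called genes and Myc in the comparisons between dissected pieces of first leg discs (x axis). Each point is an array and each line the mean; 7 genes lie above 0 on all 3 arrays against D(wg) and all 5 against V(wg), those of Ns1 from 0.66 to 2.99, while Myc has points on both sides of 0 and none in the 2 comparisons with D(wt). TD against D(wt) is drawn as labelled, with its direction not settled.

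Between D(wg) and V(wg) cells limma called 0 of 33 genes of the set (0.302 percent of all genes), and 6 passed an unadjusted p under 0.05. The median was -0.16. The fitted values farthest from 0 were those of Tif-IA, at -0.71, -2.39 and -0.83 on the 3 arrays (fitted -1.33, limma adjusted p 0.0734), and RIOK1, at -1.0, -1.48 and -0.35. Another Tif-IA probe was fitted at -1.43 and the third had the opposite sign at 0.29, neither of them called. Ns1, high in TD cells, read 0.41, 2.73 and -0.98 here, on both sides of 0. Without the third array 2 of 32 genes were called, 1 in each direction, with 3.92 percent of all genes called. In wild-type discs, D(wt) against V(wt), all 29 genes tested lay between -0.22 and 0.29, and 0 were called or passed an unadjusted p under 0.05 (0.696 percent of all genes were called). At an unadjusted p under 0.05, 1487 genes of all kinds passed between D(wg) and V(wg) and 177 between D(wt) and V(wt). The dorsal-ventral ratio differed between Wg-expressing and wild-type discs for 0 of 29 genes (0.0880 percent of all genes). At an unadjusted p under 0.05 it differed for 2 of the 29 and for 581 of all genes.

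Between the samples labelled TD and D(wt), 4 of 30 genes tested differed, 1 higher and 3 lower in the sample labelled TD, or the reverse if the labels are turned. Rrp42, a ring subunit of the exosome, read -1.01 and -1.21 as labelled (fitted -1.31, SE 0.29, limma adjusted p 0.00395), or 1.31 with ratios and dyes turned. Polr1A, the largest subunit of RNA polymerase I, read -0.92 and -1.06 (fitted -1.06, SE 0.24, adjusted p 0.00434), or 1.06 turned. RIOK2 read -0.58 and -0.62 (fitted -0.59, adjusted p 0.0353), or 0.59 turned. Dbp45A, a DEAD-box helicase, had the opposite sign to these, at 1.05 and 0.61 (fitted 0.80, adjusted p 0.021), or -0.80 turned. Over all genes 5.52 percent were called lower and 3.95 percent higher as labelled (348 and 249 genes, or 264 and 340 with the values as deposited). The median of the 30 genes was -0.33 as labelled, with 22 of them below 0, and 0.33 turned, against -0.044 over all genes as labelled.

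The genes highest in TD against D(wg) were divided here. As labelled Ns1 read 0.98 and 0.48, while Nop56 read -0.42 and -0.50, Nle -0.44 and -0.79 and pit -0.36 and -0.76, none of them called. With the labels turned the signs of these 4 genes are the reverse, so that in either direction Ns1 lies on the other side of 0 from Nop56, Nle and pit. Both arrays have the same dye orientation. Fitted alone without a dye term they gave 12 calls among the 30 genes, 3 higher and 9 lower as labelled, with 19.3 percent of all genes called, and with the first or the second left out 0 of the set were called, with 0.833 and 2.35 percent of all genes. Myc had no value on these 2 arrays.

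**Figure D3:**
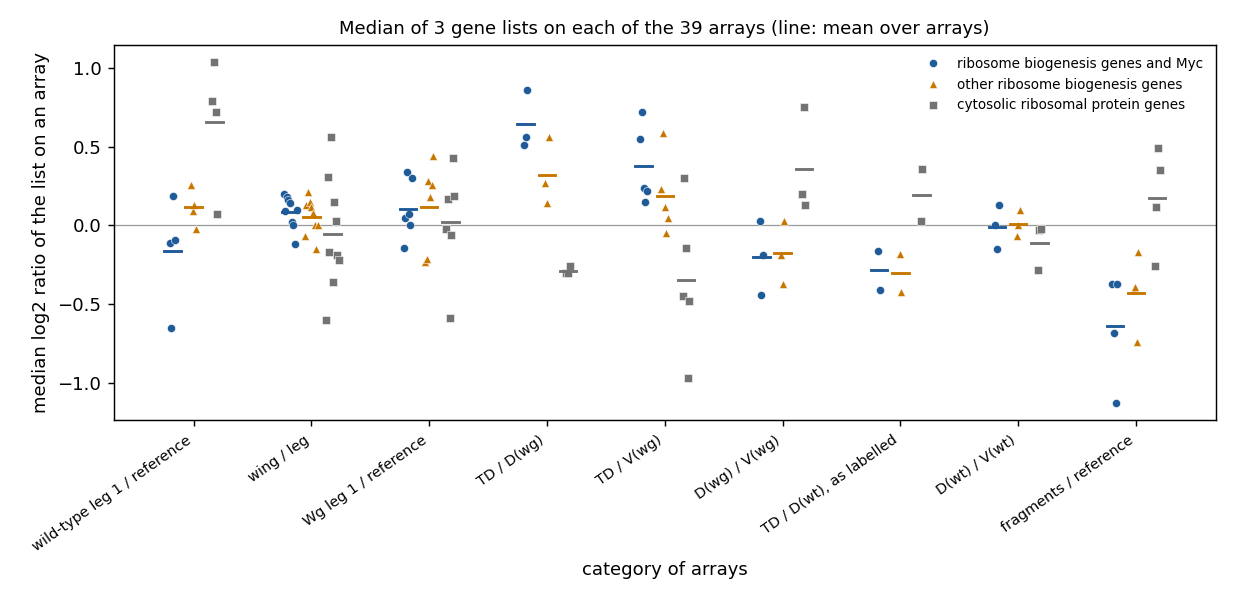
Median log2 ratio of 3 gene lists (y axis) on each array, by category (x axis). Lines are means over arrays; the set of ribosome biogenesis genes and Myc lies above 0 on all 3 arrays of TD against D(wg) (0.51 to 0.86) and all 5 of TD against V(wg) (0.15 to 0.72) and below 0 on all 4 of fragments (-1.13 to -0.37). TD against D(wt) is drawn as labelled, with its direction not settled.

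Other genes of ribosome biogenesis were read from a further list of 45 genes with a probe. In TD against D(wg) cells 15 of 42 tested were higher and 0 lower (10.8 and 7.87 percent of all genes), with a median of 0.37. smid, an ATPase of pre-60S maturation (1.44), nclb (1.18), Polr1E, a polymerase I subunit (1.10), and Noc1 (1.07) were among them, positive on all 3 arrays. Against V(wg) 9 of 40 were higher and 1 lower (6.97 and 6.96 percent of all genes), with a median of 0.21. CG8545 (1.16), smid (1.09), Polr1E (0.91) and l(3)72Dn (0.87) were higher there and positive on all 5 arrays.

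The cytosolic ribosomal protein genes, whose products form the finished ribosome, were not called higher in either comparison. In TD against D(wg) 0 of 85 were called (18.6 percent of all genes) and their median was -0.27, with array medians between -0.30 and -0.26. Against V(wg) 0 of 85 were higher and 9 lower (6.97 and 6.96 percent of all genes), with a median of -0.33. As a description over the 37 arrays other than those of TD against D(wt), the members of the set correlated with the median of the other members at a median Pearson r of 0.57 (32 genes with at least 20 arrays). The genes most like the rest were pit (0.92), nop5 (0.85), Nle (0.85) and Bop1 (0.84), and the least like it were hoip (-0.05), Rrp42 (-0.05) and NHP2 (-0.31). The further ribosome biogenesis list had a median r of 0.52 with the set's median, cell cycle genes 0.45, the ribosomal protein genes -0.37 and 6492 other genes 0.05, with 5 and 95 percent limits of -0.59 and 0.71. Myc had an r of 0.0 over its 25 arrays. These points share arrays, samples and dye orientation.

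Of 20 cell cycle genes, 4 of 17 were higher and 1 lower in TD against D(wg), and 7 of 18 were higher and 0 lower against V(wg). Over all genes 10.8 percent were higher and 7.87 percent lower against D(wg), and 6.97 and 6.96 percent against V(wg). Mcm7, a subunit of the replicative helicase, was called at 1.44 and 1.19, RnrL, of ribonucleotide reductase, at 1.07 and 0.92, and dup, a replication licensing factor, at 1.13 and 1.05. stg, the phosphatase that starts mitosis, was lower against D(wg), at -1.16. Of 9 other genes of the Myc network, pont, a helicase cofactor of Myc, was higher against D(wg) at 1.08, and hfp, known in flies as a repressor of Myc transcription, was lower at -1.49. Markers of other tissues were not uniform: in TD against D(wg) 1 of 3 fat body genes was lower and 0 higher, 1 of 4 myoblast genes was lower, 0 of 2 hemocyte genes were called and 1 of 3 tracheal genes was higher. Their part in the result was not tested.

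Myc was lower in whole Wg-expressing first leg discs than in the reference on all 6 arrays. It read -1.93, -0.83, -1.50, -2.45, -1.40 and -1.22, from a lowest value of -2.45 through a median of -1.45 to a highest of -0.83. No value comes near 0, and the fitted difference was -1.56 (SE 0.18, 2.94-fold lower, limma adjusted p 8.32e-06). Wild-type first leg discs read 0.67, -0.50 and -0.49 against the same reference on the 3 arrays that measured Myc, and these do not overlap with the 6. Wg-expressing against wild-type first leg discs, the contrast of the 2, was -1.57 (SE 0.33, limma adjusted p 0.00808). With these arrays fitted alone without a dye term it was -1.45 and was not called (limma adjusted p 0.0531).

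In the same discs the processing genes were called in both directions. Of 33 genes tested against the reference 13 were called, 9 higher and 4 lower with Myc among the latter, where 22.4 percent of all genes were called, and their median was 0.07. Nle had its lowest value at 0.48, its median at 0.88 and its highest at 1.13 (fitted 0.83, SE 0.19, limma adjusted p 0.00263). NHP2 ran from 0.32 through 0.85 to 1.17 (fitted 0.77, adjusted p 0.00199). Nop60B, with NHP2 a box H/ACA protein, ran from 0.41 through 0.62 to 1.28 (fitted 0.75, adjusted p 0.000148). All 6 arrays were above 0 for each of these, as they were for Surf6 (0.57), a nucleolar protein known as Rrp14 in yeast, RIOK2 (0.50) and Polr1A (0.42). Dbp45A was below 0 on all 6, from -1.14 through -0.81 to -0.36 (fitted -0.77, adjusted p 5.56e-05). dbe, Mys45A and Rrp42 were called higher and Rrp4 and Rrp6 lower, each with 1 array on the other side of 0. The Mys45A probes not kept were fitted at 0.41 and 0.35 and were not called (limma adjusted p 0.0947 and 0.0629). Of the 8 genes with the highest fitted values in TD against D(wg), Nle was the 1 called in the whole disc. The others had fitted values of 0.02 for Ns1, -0.33 for Nop56, -0.53 for Nnp-1, 0.07 for pit, 0.47 for RIOK1, 0.05 for wcd and -0.17 for Ns3 there.

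Set against wild-type first leg discs through the reference, 1 of 32 genes was higher and 1 lower (3.67 and 3.43 percent of all genes). The lower one was Myc. The higher one was dbe, a small-subunit processome protein, at 0.75 (SE 0.22, limma adjusted p 0.0395), and its 2 ranges overlap. The median of the 32 was 0.32, against 0.022 over all genes, and 24 of them were above 0. Several markers and a technical label ran with this contrast. Of 5 fat body genes tested 4 were higher in Wg-expressing discs, with a median of 2.96. The mean of the fat body genes measured on an array ran from -2.49 to -2.01 in wild-type discs and from 0.08 to 1.81 in Wg-expressing discs, both against the reference, and its part in the result was not tested. Ribosomal protein genes were lower, 15 of 82, with a median of -0.60. The Wg-expressing discs were hybridised on slides numbered with the prefixes 6 and 7 and the wild-type discs on prefixes 5 and AK, so slide series and genotype cannot be told apart. Without the first wild-type array 0 genes of the set were called (Myc -1.18, limma adjusted p 0.0684), with 2.89 percent of all genes called, and without the second 1 was, Myc, with 3.38 percent. Leaving out 1 array of Wg-expressing discs, any but array 2, also left 1 call, that of Myc, with 5.32 to 6.12 percent of all genes called. With the arrays of the 2 groups fitted alone without a dye term 2 genes were called higher, neither of them dbe, with 3.61 percent of all genes.

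Wild-type first leg discs themselves differed from the reference for 4 of 32 genes. NHP2 was higher on all 4 arrays, at 1.37, 1.52, 1.00 and 0.74 (fitted 1.17, SE 0.21, limma adjusted p 0.00126), with 8.00 percent of all genes higher. Nop56 read -0.93, -2.31 and -0.90 on 3 arrays (fitted -1.49, adjusted p 0.00684), and Nnp-1 (-0.79) and Rrp6 (-0.75) were also lower, with 10.1 percent of all genes. The second array had the lowest median of the set (-0.65, others -0.11 to 0.19), and without it 1 gene was called, NHP2, with 4.0 percent of all genes. Without the first 2 were called, NHP2 and Nop56, with 3.87 percent, and without array 4 it was 7, with 19.6 percent. Ribosomal protein genes were higher than the reference here, 43 of 82, with a median of 0.58, and fat body genes lower, 4 of 5. Array 4 was the only one of slide prefix AK and of its dye orientation, so the fit on the 3 arrays of slide prefix 5 is the same as the fit without array 4.

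**Figure D4:**
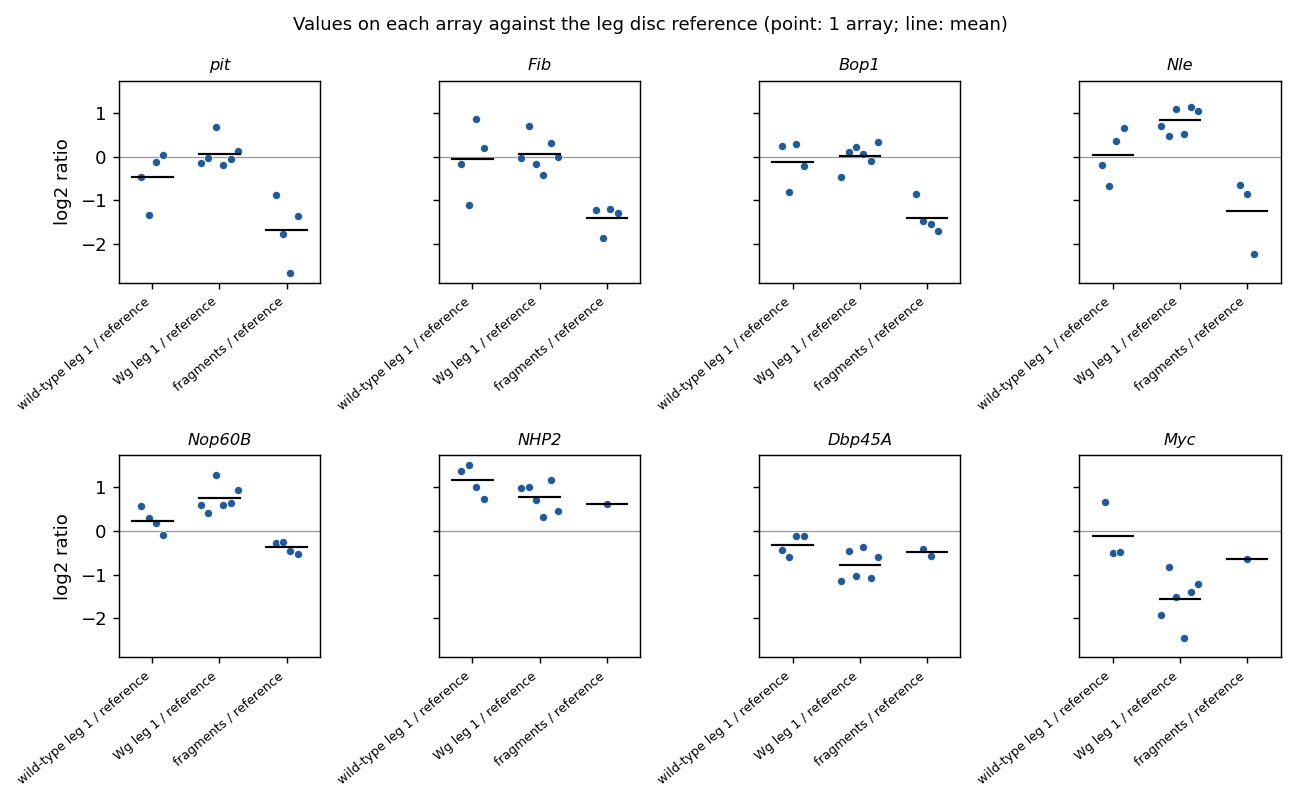
Log2 ratios (y axis) on each array against the shared leg disc reference for 7 ribosome biogenesis genes and Myc (panels), in wild-type first leg discs, Wg-expressing first leg discs and cultured fragments (x axis). Each point is an array and each line the mean; Myc reads -2.45 to -0.83 in Wg-expressing discs, and pit, Fib, Bop1 and Nle are below 0 on every array of fragments.

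Leg disc fragments kept in adult abdomens had less transcript of many of these genes than the reference. Of 22 genes tested 13 were called lower and 0 higher, where 25.9 percent of all genes were lower and 15.8 percent higher, and the median was -0.61 against -0.079 over all genes. Another 12 genes, Myc among them, could not be tested, since too few of the 4 arrays held a value. pit read -0.87, -1.78, -2.67 and -1.36 (fitted -1.67, SE 0.24, 3.18-fold lower, limma adjusted p 2.73e-06). Bop1 read -0.85, -1.47, -1.55 and -1.71 (fitted -1.40, SE 0.16, 2.63-fold lower, adjusted p 1.43e-07). Fib read -1.22, -1.85, -1.20 and -1.30 (fitted -1.39, SE 0.20, adjusted p 2.49e-06). Every one of these 12 values is at or below -0.85.

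nop5 read -0.21, -1.62, -1.59 and -1.09 (fitted -1.13, SE 0.22, limma adjusted p 0.000193), and Rrp4, a cap subunit of the exosome, -1.36, -0.99, -1.15 and -0.72 (fitted -1.05, adjusted p 0.000108). The polymerase I subunits Polr1B (-0.75) and Polr1A (-0.58) and the large-subunit protein Mys45A (-0.67) were negative on all 4 arrays. For Mys45A 2 probes were called and both were lower, and the one not kept read 0.11 on the first array. Ns1 (-1.42), Nle (-1.24), Nop56 (-0.91) and eIF6 (-0.58) were called from 3 arrays, all negative, and Surf6 (-0.48) from 4. By role 7 of 10 large-subunit, 3 of 5 snoRNP, 2 of 3 polymerase I, 1 of 2 exosome and 0 of 2 small-subunit genes were called. Myc had 1 value, -0.63.

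The 4 arrays of fragments differ in spread and in how many genes they hold. The third had the lowest median of the set (-1.13, the others -0.68 to -0.37) and the widest spread of all genes, and with every array scaled to the same spread 6 of the 22 were called (14.2 percent of all genes). With the 4 arrays fitted alone without a dye term 6 were called as well (11.4 percent of all genes). Against the reference 25.9 percent of all genes were lower and 15.8 percent higher, the shares to set beside the list counts that follow. The further list of ribosome biogenesis genes had 6 of 19 lower and 2 higher. Noc3 (-1.50), CG7728 (-1.49) and Gar1, a box H/ACA protein (-0.96), were negative on all 4 arrays. Of the Myc network, pont (-1.38) and rept (-0.93), 2 helicases that work as a pair, were lower and hfp (1.34) higher. Of cell cycle genes 4 of 12 were lower, with RnrL at -1.62 and Cdk1 at -1.05, and 2 higher, stg (0.85) and CycD (0.53). Ribosomal protein genes were called both ways, 15 of 82 higher and 11 lower, with a median of 0.20. Hemocyte markers had values on 2 of the 4 arrays, 1.96 for 1 gene on the first and a median of 1.25 over 4 genes on the second, and too few for a test. The array medians of fat body markers were -0.45, -0.95, 2.01 and -1.51, and 1 of 2 genes tested was higher. Those of myoblast markers were 0.16, 0.12, 0.67 and 0.60, and 1 of 3 was higher. Their part in the result was not tested.

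Against wild-type first leg discs the fragments had 7 of 22 genes lower and 0 higher, where 14.7 percent of all genes were lower and 6.04 percent higher, and the medians were -0.59 for the set and -0.198 for all genes. Fib (-1.31, limma adjusted p 0.00165), Bop1 (-1.27, adjusted p 0.000371) and Polr1B (-1.21, adjusted p 0.00318) were lower with no overlap between the 4 arrays on either side. Nle, pit, Nmd3, an export adaptor of the large subunit, and Mys45A were lower with overlapping ranges. The call count moved with the scaling, to 12 with the values as deposited (24.5 percent of all genes) and 1 with equal spread (3.07 percent). Without the third array of fragments it was 4 (12.5 percent of all genes), and with the 8 arrays fitted alone without a dye term 2 (4.82 percent). These fragments came from second leg discs and the wild-type discs are first leg discs, so leg segment and culture cannot be told apart here. The part of leg segment in this result was not tested. In the arrays of wing against leg limma called 0 genes of the set between leg segments. That was 0 of 31 or 32 genes in each of 3 contrasts, with 0.0174, 0.00 and 0.00 percent of all genes called. At an unadjusted p under 0.05 0 of the set and 52, 42 and 41 of all genes passed.

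Wg-expressing first leg discs against fragments gave 14 of 22 genes higher and 0 lower (19.2 and 8.73 percent of all genes), with a median of 0.80 against 0.140 over all genes. Nle had the widest difference, 2.06 (SE 0.33, 4.18-fold, limma adjusted p 4.89e-05), from 6 and 3 arrays. pit followed at 1.74 (adjusted p 0.000122), then Fib at 1.46, Ns1 at 1.45, Bop1 at 1.42, nop5 at 1.38, Nop60B at 1.12, Surf6 at 1.05 and Polr1A at 1.00, each, like Nle and pit, without overlap between the 2 groups of arrays. This contrast and the preceding one share the fragment arrays. The fragments came from second leg discs on slides of prefix 5, and the Wg-expressing first leg discs lie on prefixes 6 and 7. Slide series, leg segment, culture and Wg expression cannot be told apart here.

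Between wing and leg discs limma called 0 of 31 genes tested on 9 arrays, where 4.57 percent of all genes were called. At an unadjusted p under 0.05 0 of the 31 passed, and 613 of all genes. The fitted values ran from -0.18 (Nnp-1) to 0.26 (NHP2), and 26 of the 31 were above 0, with a median of 0.10 against 0.003 over all genes. pit had its lowest value at -0.25, its median at 0.02 and its highest at 0.87, and Nle ran from -0.14 through 0.11 to 1.03. The first array of wing against first leg gave the highest value of both. 0 of 26 genes with a value on every array were above 0 on all 9, and 0 below. Myc was measured on 5 of the 9 arrays, at 0.60, 0.02, 0.98, 0.07 and -0.19, too few to be tested.

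By its ratio to the sample beside it, Myc was thus lowest in Wg-expressing first leg discs (-1.56). The ratio was -0.38 (SE 0.26) in TD against D(wg) and -0.10 in TD against V(wg). It was 0.01 in wild-type first leg discs, 0.07 in D(wg) against V(wg) and 0.26 in wing against leg, fitted on 5 arrays and not tested. Of the tested values that of Wg-expressing first leg discs alone passed the threshold. The samples set beside differ, and TD, D(wg) and V(wg) cells all come from Wg-expressing discs. Myc had 1 array of fragments (-0.63) and no value in the comparisons with D(wt).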

How the data were processed

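The series is a table of 39 two-colour arrays of amplified RNA. The deposited values are log ratios, taken as log2 from their range since the labels do not state the base; background correction and normalization are not given in the sources used here. Per the labels, RNA went through 2 rounds of T7 amplification, was coupled to Cy3 or Cy5, and slides were scanned on a GenePix 4000A. Only log2 ratios were available, so signal over background is unknown, and precision is set by how many arrays a comparison has.

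Each array was turned so that the first-named sample is the numerator, as its label states, and centred on its median over gene probes (16361 probes after 144 control spots). Arrays held between 2969 and 14650 values. RefSeq's gene table named 15366 probes, of which 12612 by a current CG number, 2720 by an older one and 34 by symbol, while 486 matched several genes and 509 none. One least squares fit per probe over all 39 arrays had a term for each comparison, each leg segment apart in wing against leg, and 1 for dye orientation. Its variances were moderated with limma 3.58.1 in R 4.3.3 (prior degrees of freedom 3.57, prior SD 0.2793), and p-values were adjusted by Benjamini-Hochberg over all probes tested and called at 0.05. A probe was tested with values on at least 66.7 percent of a comparison's arrays and on at least 2. In wing against leg that share was read over the 9 arrays, and the stricter reading, by leg segment, was added after its values had been seen. Tables came from pandas 2.3.3 and numpy 2.4.6 and figures from matplotlib 3.10.9, under Python 3.11.15. The fit was tested on simulated ratios: in TD against D(wg) it recovered 28 percent of changes of 0.5 and 79 percent of changes of 1 on the log2 scale.

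Named are Myc in every category, the called members with a value of one sign on every array (up to 8 per comparison, the widest first), members with discordant probes, and up to 4 genes of each other list by the same rule. Other genes named were chosen after their values were seen. Members and lists were chosen with earlier results of these data known. Of 73 symbols of the further ribosome biogenesis list 46 matched. A few symbols were dropped from the lists after the probe names were known. The alternatives tried were the arrays of a comparison fitted alone, values as deposited, equal spread, other filters on missing values, the mean of a gene's probes, single slide prefixes and each array left out.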

Additional observations from a re-analysis of the deposited data

Results flagged for a closer look

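Of 113 groups of 4 to 10 arrays tested, 5 held an array farther from the others than Dixon's 95 percent limit, and chance alone gives about 5 percent. In TD against V(wg) the first array stood apart for 3 genes. RIOK1 read 2.66 there and 0.04 to 0.21 on the other arrays, Non1 1.86 against -0.45 to -0.20, and Bop1 1.18 against 0.22 to 0.44. In fragments Fib read -1.85 on the second array and -1.30 to -1.20 on the others. In Wg-expressing first leg discs pit read 0.68 on the third array and -0.18 to 0.13 on the others.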

How the results depend on the processing

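The 51 alternative fits are spread over the comparisons, so that a gene had at most 9 in TD against D(wg) and at most 16 elsewhere. Members called in every setting that tested them numbered 2 of 16 in TD against D(wg) (Ns1 and Nle) and 0 of 9 in TD against V(wg). Against the reference they numbered 7 of 13 in Wg-expressing discs, 5 of 13 in fragments and 1 of 4 in wild-type discs. Against wild-type discs they numbered 0 of 2 in Wg-expressing discs and 1 of 7 in fragments. In Wg-expressing discs against fragments they numbered 10 of 14. With the arrays of a comparison fitted alone without a dye term, the calls numbered 2 in wild-type discs against the reference (5.33 percent of all genes), 0 in TD against V(wg) (4.44), 12 in TD against D(wt) (19.3), 6 in fragments against the reference (11.4) and 2 in fragments against wild-type discs (4.82). They also numbered 2 in Wg-expressing against wild-type discs (3.61), where Myc was lost at -1.45. As deposited, fragments against wild-type discs gave 12 (24.5). With equal spread the calls were 6 in fragments against the reference (14.2), 1 in Wg-expressing against wild-type discs (3.51) and 1 in fragments against wild-type discs (3.07). Wg-expressing against wild-type discs gave 1 with values on every array (8.86), and wild-type discs against the reference gave 7 on slides of prefix 5 alone (19.6). For wild-type and for Wg-expressing discs against the reference, the fit on a single slide prefix is the same as leaving out array 4. The bracketed values are the percent of all genes called in that setting. The cause of these moves was not tested.

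Leaving out 1 array moved the calls, given here with the percent of all genes called in the same fits in brackets. Wild-type discs against the reference gave 1 to 7 (3.87 to 19.6) and Wg-expressing against wild-type discs 0 to 3 (2.89 to 8.94). Fragments against wild-type discs gave 4 to 9 (12.5 to 21.2) and Wg-expressing discs against the reference 9 to 13 (15.9 to 24.0). Wg-expressing discs against fragments gave 12 to 16 (19.3 to 29.7) and TD against D(wg) 2 to 14 (5.52 to 16.7). TD against V(wg) gave 3 to 9 (5.75 to 12.1) and D(wg) against V(wg) 0 to 2 (0.116 to 3.92). Fragments against the reference gave 9 to 15 (27.6 to 44.1). Calls numbered 0 in wing against leg (3.67 to 4.52) and between leg segments (0.0 to 0.0471). They also numbered 0 in D(wt) against V(wt) (0.293 to 0.666) and in the change of the dorsal-ventral ratio (0.0433 to 0.144).

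The turned direction of TD against D(wt) was added after seeing the data. With the ratios turned and dyes as labelled, the fitted values were 0.91 for Polr1A, 0.61 for RIOK2, -0.86 for Dbp45A and 0.91 for Rrp42. With ratios and dyes turned they were 1.06, 0.59, -0.80 and 1.31. A contrast of D(wg) with D(wt) cells, computed after values had been seen, is not reported, since its sign rests on that direction. The stricter filter in wing against leg, also added, gave 0 calls and a median of 0.10. Without centring the median of all genes moved by 0.08 at most in size. For the dorsal-ventral change, 5 probes were higher and 3 lower, and 21 and 33 with equal spread.

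Wing and leg discs of the same larva are paired within an array by its ratio. Across arrays no paired analysis was possible because the replicate numbers were given in accession order and pair no samples. Wg-expressing and wild-type discs lie on slides of different prefixes, so slide series and genotype cannot be told apart.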
